A study of Mus musculus with 8 samples.

Results

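The sarcomere and excitation genes of skeletal muscle were followed in posterior palatal shelves, the outgrowths that later meet to form the back of the roof of the mouth. The module held 42 genes, chosen by name for their roles in the contractile apparatus and in its electrical and calcium control, and all 42 were found among the 55536 genes of the deposited table. A filter on low values asked that 4 or more of the 8 libraries reach 10 normalised counts, and 40 members passed it, as did 16647 genes in all. The 2 that did not pass were Myl2 and Mybpc2.

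Each library came from the non-elevated posterior palatal shelves, right and left, of E14.5 mouse embryos, epithelium and mesenchyme together, and total RNA was sequenced. The 4 mutant libraries had the genotype Yapfl/fl;Tazfl/fl;Col2Cre, and the 4 control libraries had the genotype Yapfl/fl;Tazfl/fl, so both groups carried floxed alleles of Yap and Taz, a pair of transcriptional co-activators of the Hippo pathway. The Cre was driven by Col2a1 regulatory sequence, which is best known for its activity in cartilage precursors, so cells outside that lineage may have kept both genes. The comparison asks which transcripts differ in the shelves before elevation when Col2Cre is added to the floxed alleles. Whether each library stands for its own embryo is not said in the labels, so a p-value here measures spread between libraries, which may be technical in part.

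The normalised counts stood for 29025090 to 32437977 reads per library. Yap1 had 8745, 8229, 8221 and 8656 normalised counts in mutant replicates 1 to 4, against 9095, 9459, 10086 and 9799.8 in control replicates 1 to 4 (log2 difference -0.18, limma adjusted p = 0.751). Wwtr1, the gene for TAZ, had 4574, 3873, 3649.9 and 3931 in mutants and 4835, 4928, 5305 and 4449 in controls (log2 difference -0.29, limma adjusted p = 0.751). For Yap1 all mutant libraries lay below all control libraries, and for Wwtr1 the ranges overlapped. These counts cover whole genes and so do not separate floxed exons.

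Skeletal muscle contracts when myosin of the thick filament pulls on actin of the thin filament, under the control of the troponin complex, which responds to calcium. A nerve signal reaches the fibre through the acetylcholine receptor, spreads along the membrane, is read by a voltage-sensing calcium channel and is turned into calcium release from the sarcoplasmic reticulum. In the embryo the posterior, soft part of the palate receives muscle cells that derive from cranial mesoderm, and fibres at that age use embryonic and slow isoforms of many of these proteins.

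The promoters of muscle genes carry short elements that have been studied in detail: E-boxes bound by MyoD and myogenin, CArG boxes bound by serum response factor, MEF2 sites, and MCAT elements (CATTCC) bound by TEAD factors, which are also the DNA-binding partners of YAP and TAZ. Of the 42 members, 34 matched a promoter in the RefSeq table for build GRCm38.p6, a window of 250 bases before to 50 bases after the start. Neb, Tnnt3, Tnni2, Myom2, Actn3, Tcap, Cacng1 and Chrnd had no entry. For each member the listed start nearest the upstream end of its deposited gene span was used. The background took the first listed promoter of each gene, so the choice of start differed between them. For Tnni1, Myl3, Myl2, Ckm and Mylpf the start lay 19987, 21817, 7762, 6318 and 2718 bases from that end. Both strands were searched. The MyoD-type E-box CAGCTG lay in 15 of the 34 windows (44.1%), against 16.1% of the 27025 background promoters. The windows of Tnni1, Myl2, Ckm and Mylpf were among the 15. The general E-box CANNTG, which includes CAGCTG, lay in 29 of 34 (85.3%) against 72.1%, and the CArG box in 6 of 34 (17.6%) against 1.57%. The MEF2 site lay in 6 of 34 (17.6%) against 3.26%, the MCAT element CATTCC in 12 of 34 (35.3%) against 14.6%, and TATAAA in 11 of 34 (32.4%) against 14.2%. A match describes letters in a window and is not a site of binding.

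A set of 4 promoters is shown because these genes, a pair of sarcomeric actins, a troponin and a receptor subunit, stand for different roles that moved together across the libraries. Each is given as the 250 bases upstream of the RefSeq start on the gene's own strand, with CAGCTG, CArG boxes and CATTCC in capitals. The windows are chr8:123894776-123895025 (minus strand) for Acta1, chr2:114052876-114053125 (minus strand) for Actc1, chr1:135836084-135836333 (plus strand) for Tnnt2 and chr1:87205561-87205810 (plus strand) for Chrng. The RefSeq start lay 24, 673, 20 and 1154 bases from the upstream end of the deposited gene span for Acta1, Actc1, Tnnt2 and Chrng. For Actc1 and Chrng it lay inside the span, so their windows fall within the deposited gene. The windows of Acta1 and Tnnt2 lie upstream of it.
Acta1: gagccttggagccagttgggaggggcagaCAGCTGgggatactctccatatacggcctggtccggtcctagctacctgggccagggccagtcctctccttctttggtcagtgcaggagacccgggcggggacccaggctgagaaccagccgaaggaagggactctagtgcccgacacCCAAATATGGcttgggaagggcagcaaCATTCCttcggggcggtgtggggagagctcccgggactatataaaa
Actc1: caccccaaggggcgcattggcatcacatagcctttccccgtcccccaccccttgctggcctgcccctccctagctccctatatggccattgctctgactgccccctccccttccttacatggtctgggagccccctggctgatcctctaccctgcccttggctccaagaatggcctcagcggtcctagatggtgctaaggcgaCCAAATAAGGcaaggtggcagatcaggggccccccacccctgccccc
Tnnt2: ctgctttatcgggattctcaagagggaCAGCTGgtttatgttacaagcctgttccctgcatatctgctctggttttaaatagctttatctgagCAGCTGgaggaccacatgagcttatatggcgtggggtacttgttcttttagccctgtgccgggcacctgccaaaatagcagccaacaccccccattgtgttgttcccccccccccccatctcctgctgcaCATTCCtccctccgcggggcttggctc
Chrng: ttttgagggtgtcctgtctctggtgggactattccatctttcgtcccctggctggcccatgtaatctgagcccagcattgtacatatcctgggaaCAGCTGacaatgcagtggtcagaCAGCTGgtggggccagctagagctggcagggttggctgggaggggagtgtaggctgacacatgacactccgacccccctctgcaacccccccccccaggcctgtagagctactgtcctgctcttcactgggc
In the Acta1 window the E-box began at -221, the CArG box at -73 and the MCAT element at -46, counted from the start. The Actc1 window held a CArG box at -47, the Tnnt2 window E-boxes at -223 and -157 and an MCAT element at -27, and the Chrng window E-boxes at -155 and -132.

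No member of the module was called higher or lower in the mutant libraries, while the level of the module as a whole differed widely from one mutant library to the next. In limma, 0 of 40 members were higher and 0 were lower at an adjusted p under 0.05, where 0% of the 16647 genes tested were called higher and 0.0240% (4 genes) were called lower. At an unadjusted p under 0.05 there were 0 of 40 members, against 6.57% of all genes tested. That count was 4 without mutant replicate 3 (5.89% of all genes) and 3 without mutant replicate 4 (6.78%). edgeR (0% of all genes called higher, 0.0300% lower) and DESeq2 (0.0180% higher, 0.168% lower), run on the whole reads behind the table, also called 0 members in either direction. The ranges of the groups overlapped for all 40 members, where 1.86% of all genes tested were higher without overlap and 1.91% lower. The smallest limma adjusted p of a member was 0.785.

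The median log2 difference of the 40 members was -0.10, against -0.00015 for all genes tested, with 9 members higher and 31 lower in mean and a range from -0.66 for Myh1 to 0.40 for Tcap. The sign of that median rested on single libraries: it was -0.38 without mutant replicate 3, 0.23 without mutant replicate 4 and -0.04 without both. It was 0.05 in both edgeR and DESeq2, where 26 members were higher and 14 lower. The SE of a member's log2 difference lay between 0.24 and 0.66. Even the members with differences of -0.66, Myh1 and Myh4, did not pass the test at this spread, so a missing call does not show that a member was the same in both groups.

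**Figure D1:**
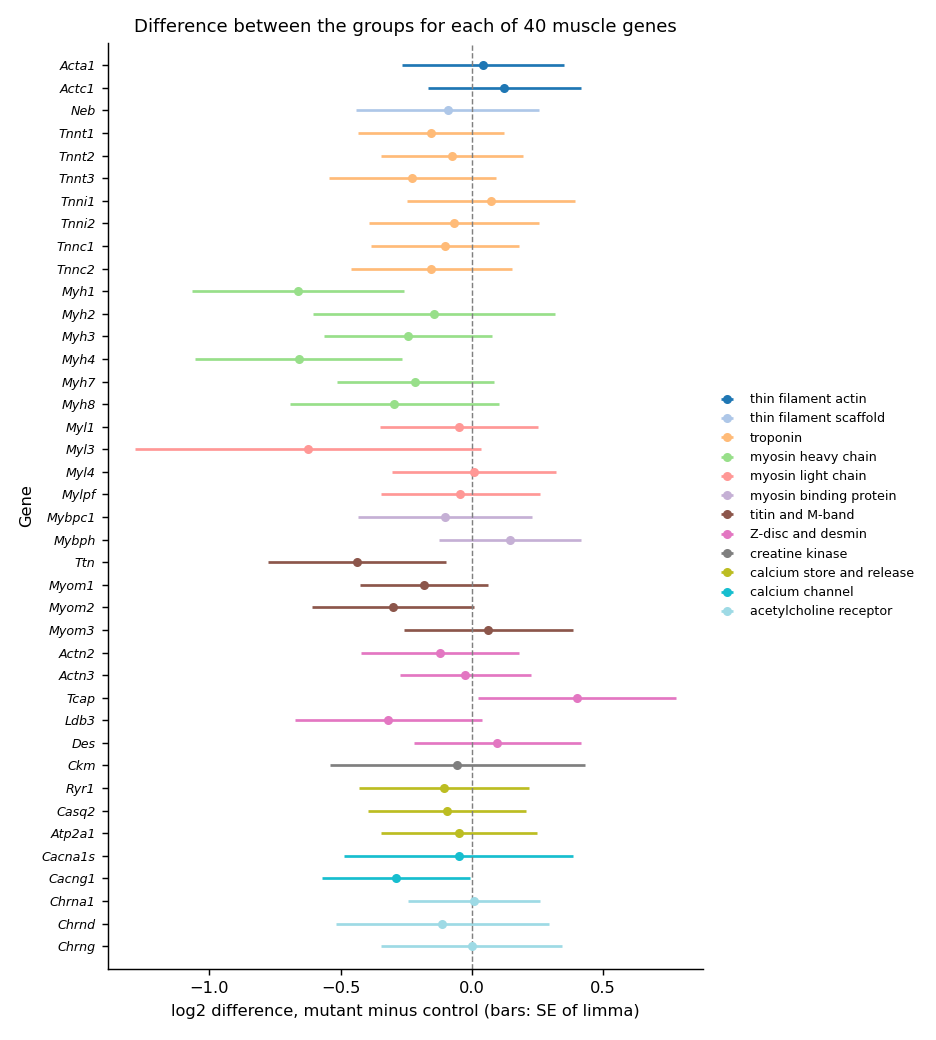
The log2 difference in normalised count, mutant minus control, is plotted for each of the 40 tested genes, with the SE of the limma fit as bars and colours for the role. Means run from -0.66 (Myh1) to 0.40 (Tcap), 9 lie above and 31 below 0, and the limma adjusted p was 0.785 or more for each.

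The module's level was set against the control mean, as the mean over the 40 members of log2(normalised count + 1). It was -0.27, 0.15, 0.71 and -1.10 in mutant replicates 1 to 4, against -0.03, 0.14, 0.07 and -0.18 in control replicates 1 to 4. Mutant replicate 3 stood above all other libraries and mutant replicate 4 below them, mutant replicate 1 lay just below the control range and mutant replicate 2 just above it. The SD was 0.77 over the mutants and 0.14 over the controls. Mutant replicate 3 had 1.64 times and mutant replicate 4 had 0.465 times the control mean, a ratio of 3.53 between these mutants, while the highest control was 1.24 times the lowest. Fewer muscle cells in a shelf and less RNA per muscle cell cannot be told apart in these bulk libraries. Members took 0.207%, 0.283%, 0.394% and 0.107% of the reads in mutant replicates 1 to 4 and 0.224%, 0.243%, 0.246% and 0.201% in control replicates 1 to 4.

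**Figure D2:**
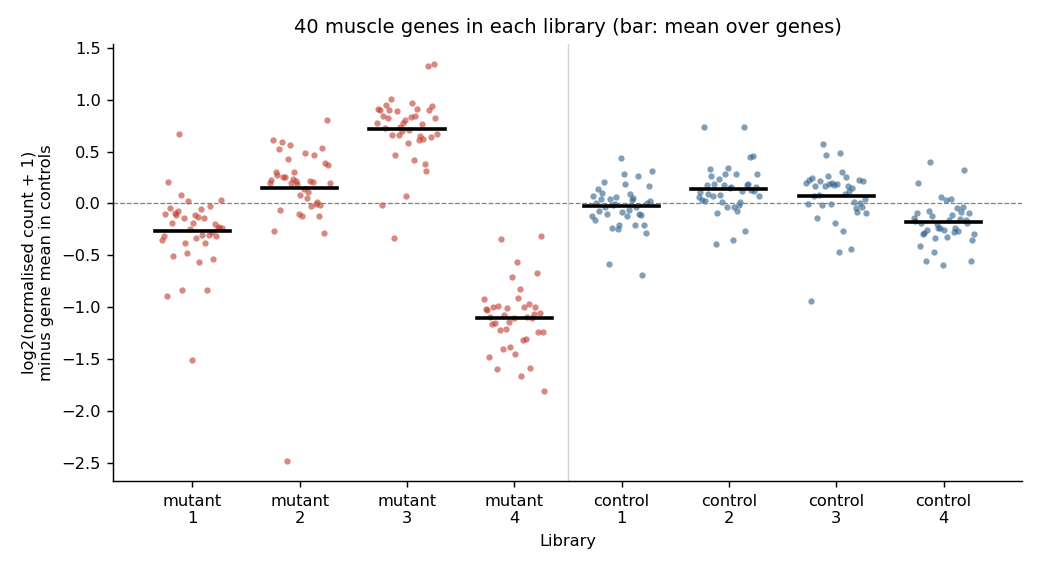
Each point is one of the 40 genes in one library, as log2(normalised count + 1) minus the gene's mean in controls, with a bar at the mean over genes. The bars stand at 0.71 in mutant replicate 3 and -1.10 in mutant replicate 4, while the control bars lie between -0.18 and 0.14.

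Of the 40 members, 37 were highest in mutant replicate 3 (10.2% of all genes tested) and 37 were lowest in mutant replicate 4 (13.1%), with 36 doing both (2.50%). Mutant replicate 3 lay above all controls for 37 members (18.9% of all genes tested) and below all controls for 0 (18.3%), and mutant replicate 4 lay below all controls for 38 (20.9%). Mutant replicate 2 lay above all controls for 20 members (24.4%), and mutant replicate 1 below all controls for 16 (18.4%). The exceptions in mutant replicate 3 were Myh1, Myh4 and Myl3, which had their highest value elsewhere. Tcap was lowest in control replicate 4, Myh4 in mutant replicate 1 and Myl3 in mutant replicate 2.

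The SD on the log2 scale was larger among mutants than among controls for 39 of 40 members (47.7% of all genes tested), and at least 2 times larger for 34 (15.6%). The ratio of the SDs had a median of 3.85 over the members, from 0.945 for Myh1 to 9.57 for Myl4, against 0.962 over all genes tested. The median ratio over the members was 2.25 without mutant replicate 4 and 1.54 without mutant replicates 3 and 4. It was not computed over all genes in these settings, so they have no background value. The mutant SD there also rests on fewer libraries than the control SD. The ratio is a description, since members of one library share its tissue and were not independent.

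**Figure D3:**
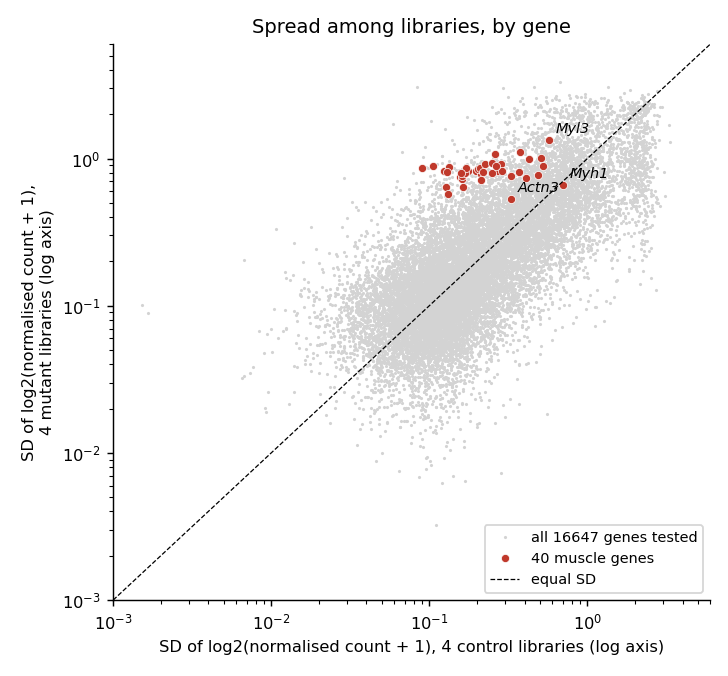
The SD of log2(normalised count + 1) over the 4 mutant libraries is plotted against the SD over the 4 control libraries, both on log axes, for the 40 muscle genes (red) and all 16647 genes tested (grey), with a dashed line where they are equal. Of the red points, 39 lie above the line, and Myh1 lies below it with a ratio of 0.945.

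The first number in each library's title was the same for some mutants and controls, and the labels do not say what it marks. Number 2057 held mutant replicate 4 with control replicates 2 and 4, and there the median log2 difference of members was -1.12 with 0 of 40 higher in the mutant. Number 3602 held mutant replicates 2 and 3 with control replicate 3, and there it was 0.40 with 39 of 40 higher in mutants. The numbers 3621 (mutant replicate 1) and 3606 (control replicate 1) held 1 group each. The direction thus differed between the numbers that held both groups, with 1 or 2 libraries of a group in each.

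Both sarcomeric actins were among the most abundant members per length. Actc1, the cardiac-type alpha actin that embryonic skeletal muscle also uses, had 6965, 10687, 14993 and 4305 normalised counts in mutants, against 7036, 7473, 9458 and 6865 in controls. Mutant replicate 3 was highest, mutant replicate 4 lowest, and the log2 difference was 0.12 (SE 0.29, limma adjusted p = 0.961). Actc1 had the highest level of all 40 tested members per kilobase of transcript, at 6271 normalised counts per kilobase in mutants and 5233 in controls. Acta1, the alpha actin that prevails in adult skeletal muscle, averaged 3748 ± 2052 normalised counts in mutants and 3257 ± 437 in controls (SD, n = 4 each). The coding sequences of Acta1 and Actc1 were identical at 86.2% of aligned bases, with a longest identical run of 29 bases, so a share of reads may not separate them.

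Neb, which encodes nebulin, the giant protein that runs along the thin filament, had 2273, 2594, 3839 and 854 normalised counts in mutants and 1885, 2726, 2568 and 1892 in controls. Mutant replicate 3 lay above all controls and mutant replicate 4 below them, with the other mutants inside the control range (log2 difference -0.09, SE 0.35, limma adjusted p = 0.976).

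All 7 troponin genes were highest in mutant replicate 3 and lowest in mutant replicate 4. Troponin T anchors the complex to tropomyosin, troponin I blocks the actin site and troponin C binds calcium. Tnnt1, the slow skeletal troponin T, had 2924, 4389, 5985 and 1788 normalised counts in mutants and 3312, 4152, 4154 and 3705 in controls. Controls stayed close together, with mutants on both sides of them (log2 difference -0.16, SE 0.28, limma adjusted p = 0.941). The other 6 had log2 differences between -0.23 (Tnnt3, the fast skeletal form) and 0.07 (Tnni1, the slow troponin I), none of them past the test. Tnnt2, the cardiac form that embryonic skeletal muscle also makes, averaged 1727 ± 849 in mutants and 1666 ± 189.7 in controls (SD, n = 4 each). Tnnc1, the slow and cardiac troponin C, averaged 2207 ± 1099 in mutants and 2155 ± 239 in controls, and Tnnc2, the fast form, 1014 ± 526 in mutants and 1013 ± 120.2 in controls (SD, n = 4 each).

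Embryonic myosin made up most of the myosin heavy chain message in every library. Myh3, the embryonic heavy chain, had 13939, 16841, 23773 and 5824 normalised counts in mutants and 14987, 17585, 18137 and 13322 in controls. Mutant replicate 3 was the highest of the 8 libraries and mutant replicate 4 the lowest (log2 difference -0.24, SE 0.32, limma adjusted p = 0.913). Per kilobase of transcript, Myh3 took 78.9%, 78.2%, 77.9% and 79.6% of the signal of the 6 heavy chain members in mutants, and 74.7%, 79.0%, 80.5% and 78.5% in controls. Myh8, the perinatal form, took 9.17% to 12.5% in mutants and 9.84% to 14.6% in controls. Myh7, the slow and cardiac beta form, took 8.01% to 9.67% in mutants and 7.98% to 9.07% in controls. The makeup thus lay in overlapping ranges while the summed level ran from 1214 to 5060 normalised counts per kilobase in mutants and from 2815 to 3733 in controls.

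The adult fast myosins had low counts, and Myh4 and Myh1 held the smallest p-values of the module. Myh1, the heavy chain of type 2X fibres, had 61.3, 95.6, 114 and 40.5 normalised counts in mutants and 115, 192, 59.5 and 132 in controls (log2 difference -0.66, SE 0.41, limma adjusted p = 0.791). The mutants lay toward the low end of the controls, with control replicate 3 lying among them. Without control replicate 3 all mutants were below all controls for Myh1, where 4.31% of all genes tested were lower without overlap. Myh4, the heavy chain of type 2B fibres, had 37.0, 100.3, 113 and 49.6 in mutants and 146, 137, 94.4 and 70.7 in controls (log2 difference -0.66, SE 0.39, limma adjusted p = 0.785). Mutant replicates 1 and 4 lay below all controls and mutant replicates 2 and 3 among them. Myh2, the type 2A form, averaged 56.7 ± 33.1 in mutants and 57.5 ± 23.5 in controls (SD, n = 4 each). Together the adult fast forms took 0.723% to 1.60% of heavy chain signal per kilobase in mutants and 0.859% to 1.88% in controls.

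Reads of these heavy chains are hard to separate. Myh3, Myh2, Myh1, Myh4 and Myh8 lie in a cluster on chromosome 11 (67078300 to 67308634 in the coordinates of the deposited table, 230 kb). Coding sequences were identical at 91.1% of aligned bases for Myh1 and Myh2 (longest identical run 268 bases), 90.2% for Myh1 and Myh4 (161 bases) and 81.7% for Myh3 and Myh8 (77 bases). They were identical at 88.2% for Myh2 and Myh4 (146 bases) and 88.1% for Myh8 and Myh4 (164 bases). Myh8 averaged 2323 normalised counts in mutants and 2430 in controls, against 75.0 and 112 for Myh4. Myh7 and the cardiac Myh6 were identical at 91.8%, with a run of 245 bases, so the values of Myh1, Myh2, Myh4, Myh7 and Myh8 are uncertain to the extent that the authors' counting split such reads.

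**Figure D4:**
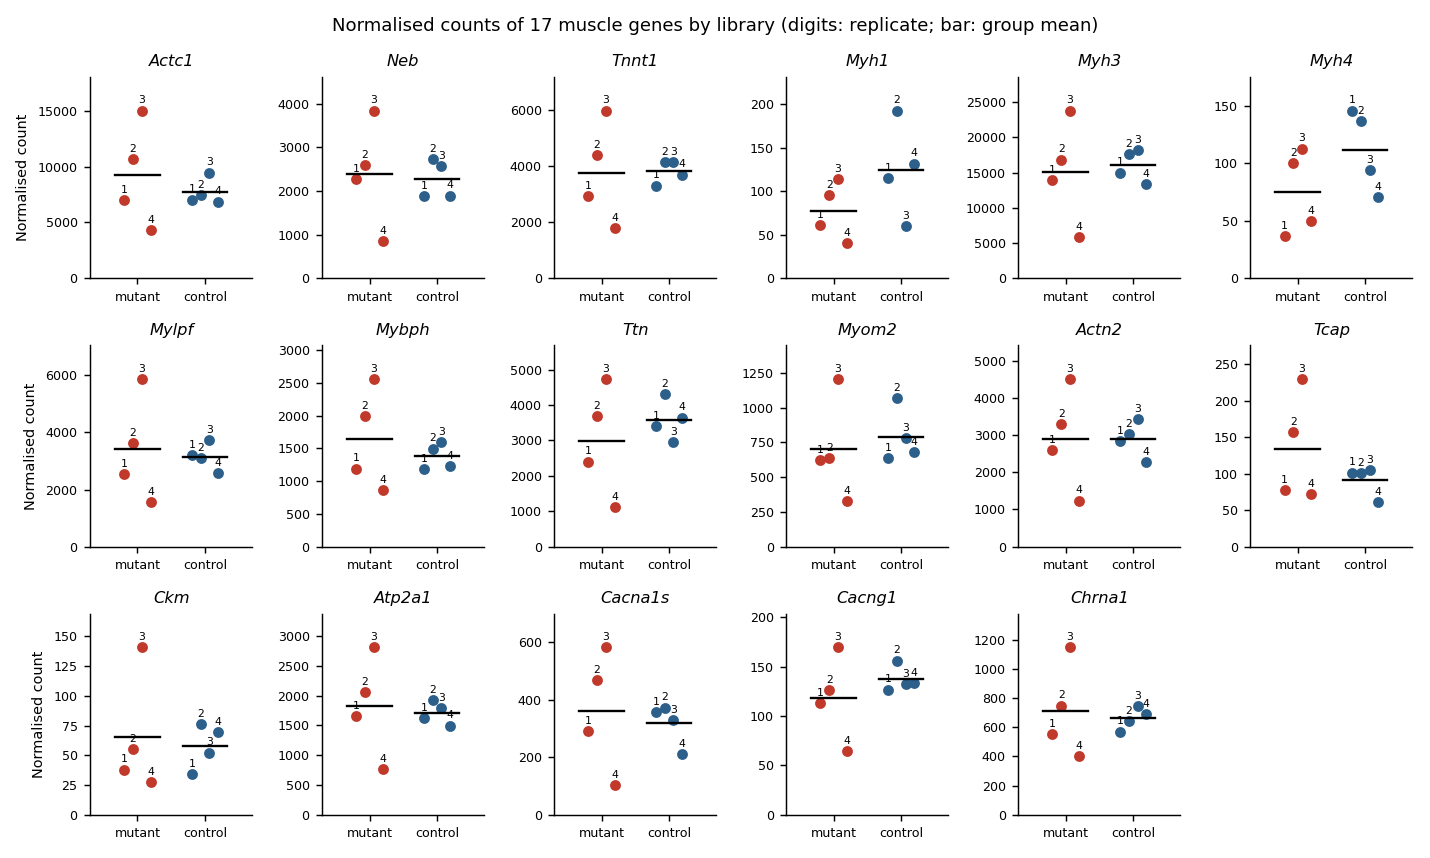
Normalised counts are plotted for 17 members, the highest of each role and the 6 with the smallest p, with one point per library, the replicate number beside it and a bar at the group mean, on axes that start at 0. Mutant replicate 3 is the highest library in all panels other than those of Myh1 and Myh4.

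Light chains stabilise the neck of the myosin head. Mylpf, the fast skeletal regulatory light chain, had 2539, 3629.6, 5878 and 1568 normalised counts in mutants and 3212, 3096, 3733 and 2579 in controls. Mutant replicate 3 lay above and mutant replicate 4 below all other libraries (log2 difference -0.04, SE 0.30, limma adjusted p = 0.985). Myl4, the embryonic and atrial essential light chain, had the largest SD ratio of the module and averaged 1858 ± 1012 in mutants and 1633 ± 103 in controls (SD, n = 4 each). Myl1, the fast essential light chain, averaged 1862 ± 1025 in mutants and 1716 ± 144 in controls.

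The slow and cardiac light chains were scarce. Myl3, the slow and ventricular essential light chain, had 41.8, 3.80, 20.3 and 20.2 normalised counts in mutants and 17.0, 19.5, 39.0 and 34.4 in controls, an order unlike that of the module. Myl2, the slow and ventricular regulatory light chain, had 0, 0, 6.80 and 8.10 in mutants and 0, 3.90, 3.10 and 3.90 in controls, and was not tested. A library with 0 reads of a gene may have held up to 3, a limit that covers counting error only.

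Myosin binding proteins lie along the thick filament. Mybph, whose product resembles the tail of myosin binding protein C, had 1191, 1988, 2561 and 861 normalised counts in mutants and 1187, 1498, 1601 and 1228 in controls. Mutant replicates 2 and 3 lay above all controls and mutant replicate 4 below them (log2 difference 0.14, SE 0.27, limma adjusted p = 0.944). Mybpc1, the slow form of myosin binding protein C, averaged 830.3 ± 449 in mutants and 785 ± 57.7 in controls (SD, n = 4 each). Mybpc2, the fast form, had 0, 0, 1.9 and 1.0 in mutants and 0, 0, 10.3 and 0 in controls, and was not tested.

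Titin spans from the Z-disc to the M-band, where myomesins tie thick filaments together. Ttn had 2399.9, 3679.8, 4735 and 1115 normalised counts in mutants and 3399, 4301, 2951 and 3643 in controls. Mutant replicates 1 and 4 lay below all controls and mutant replicate 3 above them (log2 difference -0.44, SE 0.34, limma adjusted p = 0.829). The log2 difference of Ttn was -0.03 without mutant replicate 4 and -0.72 without mutant replicate 3. Myom2, the myomesin of fast fibres and heart, had 624, 635, 1206 and 329 in mutants and 637, 1067, 779 and 682 in controls. In mutant replicates 1, 2 and 4 Myom2 lay below all controls, but it was highest of all in mutant replicate 3 (log2 difference -0.30, SE 0.31, limma adjusted p = 0.883). Myom1 averaged 957 ± 354 in mutants and 1021 ± 92.5 in controls, and Myom3 698 ± 327 in mutants and 609 ± 112 in controls (SD, n = 4 each).

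At the Z-disc, Actn2, the alpha actinin that cross-links actin, had 2592, 3285, 4509.6 and 1239 normalised counts in mutants and 2832, 3017, 3438 and 2274 in controls. The mutants spread to both sides of the controls (log2 difference -0.12, SE 0.30, limma adjusted p = 0.963). Tcap, or telethonin, which joins titin molecules at the Z-disc, had the highest log2 difference of the module at 0.40 (SE 0.38, limma adjusted p = 0.869). Its counts were 76.8, 157, 229.6 and 71.8 in mutants and 101, 101, 105 and 60.9 in controls, so mutant replicates 2 and 3 exceeded all controls and the others did not. Actn3, the actinin of fast fibres, averaged 367 ± 146 in mutants and 361 ± 75.4 in controls (SD, n = 4 each). Ldb3, a Z-disc scaffold, averaged 503 ± 274 in mutants and 553 ± 95.2 in controls, and Des, the muscle intermediate filament desmin, 2323 ± 1180.4 in mutants and 1938 ± 233 in controls.

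Ckm, the muscle creatine kinase that buffers ATP, had 37.9, 54.9, 141 and 27.3 normalised counts in mutants and 34.1, 76.1, 52.3 and 69.7 in controls. Mutant replicate 3 was the highest library and the other mutants lay within or below the control range (log2 difference -0.06, SE 0.49, limma adjusted p = 0.988).

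The 3 genes of calcium storage and release were highest in mutant replicate 3 and lowest in mutant replicate 4. Atp2a1, the SERCA1 pump that returns calcium to the sarcoplasmic reticulum, had 1654, 2060.4, 2813 and 762 normalised counts in mutants and 1622, 1921, 1793 and 1498 in controls (log2 difference -0.05, SE 0.30, limma adjusted p = 0.984). Mutant replicates 2 and 3 lay above all controls and mutant replicate 4 below them. Ryr1, the calcium release channel, averaged 1441 ± 643 in mutants and 1388 ± 131 in controls, and Casq2, a calcium-binding protein of the store, 1064 ± 495 in mutants and 1026 ± 95.7 in controls (SD, n = 4 each).

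Cacna1s, the voltage-sensing subunit of the skeletal calcium channel, had 292, 469, 584 and 102 normalised counts in mutants and 359, 373, 330.4 and 212 in controls. Its mutants spread more widely than its controls on both sides (log2 difference -0.05, SE 0.44, limma adjusted p = 0.989). Cacng1, the gamma subunit of that channel, had 113, 126, 169.8 and 64.7 in mutants and 127, 156, 132 and 134 in controls (log2 difference -0.29, SE 0.28, limma adjusted p = 0.879). As for Myom2, 3 of the 4 mutant libraries lay below all controls and mutant replicate 3 above them. Without mutant replicate 3, Myom2 and Cacng1 had no overlap between the groups, where 3.44% of all genes tested were lower without overlap. The gaps were small. Mutant replicate 2 had 635.1 normalised counts of Myom2 against 636.8 in control replicate 1, and 125.9 against 126.7 for Cacng1.

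The 3 members that encode acetylcholine receptor subunits gave log2 differences close to 0. Chrna1, the alpha subunit, which carries the ligand site, had 554, 748, 1149 and 402 normalised counts in mutants and 569.7, 640.4, 743 and 688 in controls. Mutant replicate 3 was highest and mutant replicate 4 lowest (log2 difference 0.01, SE 0.25, limma adjusted p = 0.997). Chrng, the gamma subunit of the fetal receptor, averaged 533 ± 266 in mutants and 477 ± 83.9 in controls, and Chrnd, the delta subunit, 276 ± 173 in mutants and 261 ± 76.0 in controls (SD, n = 4 each). Chrng and Chrnd lie next to each other on chromosome 1 in the deposited coordinates, at 87204657 to 87212694 and 87190607 to 87200070.

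Ratios between members within a library tested whether isoform choice differed apart from the module's level. Of 10 ratios planned, 8 were made, since both genes had to reach a mean of 10 normalised counts and Mybpc2 and Chrne did not. Among the 8, Myl3 to Mylpf sets an essential against a regulatory light chain and is not an isoform pair. Differences between groups did not pass an exact two-sided permutation test over the 8 libraries in any of the 8, with p from 0.371 to 0.829 and adjusted p from 0.816 to 0.829, where 4 against 4 allows no p below 0.0286. A single ratio at that limit would have an adjusted p of 0.229 over the 8, so a difference in 1 ratio alone could not have passed. The log2 ratio of Acta1 to Actc1 averaged -1.32 ± 0.13 in mutants and -1.24 ± 0.11 in controls (SD, n = 4 each). Its mutant values of -1.22, -1.46, -1.21 and -1.40 and control values of -1.15, -1.13, -1.33 and -1.34 overlapped. The log2 ratio of Myh8 to Myh3 averaged -2.78 ± 0.22 in mutants and -2.73 ± 0.29 in controls, and that of Tnnt3 to Tnnt2 -0.64 ± 0.14 in mutants and -0.48 ± 0.30 in controls. The Tnni2 to Tnni1 ratio, fast over slow, averaged -2.12 ± 0.19 in mutants and -1.98 ± 0.33 in controls, and the Tnnc2 to Tnnc1 ratio -1.14 ± 0.08 in mutants and -1.09 ± 0.15 in controls (SD, n = 4 each).

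Other genes of muscle fibres were examined in the same fits, and none passed the test in limma, edgeR or DESeq2. Over all genes tested, 10.2% were highest in mutant replicate 3 and 13.1% were lowest in mutant replicate 4. Of the same genes 6.57% had an unadjusted limma p under 0.05 and 1.91% were lower without overlap. Of 34 further sarcomere genes 29 were tested, 0 were called in either direction and 0 had an unadjusted p under 0.05, with 24 highest in mutant replicate 3 and 25 lowest in mutant replicate 4 and a median log2 difference of -0.05. Of 24 further excitation genes 22 were tested and 0 were called, also 0 at an unadjusted p under 0.05, with 15 highest in mutant replicate 3, 17 lowest in mutant replicate 4 and a median of 0.01. Of 20 genes of the muscle membrane and energy supply 19 were tested and 0 were called, 1 with an unadjusted p under 0.05, with 9 highest in mutant replicate 3, 11 lowest in mutant replicate 4 and a median of -0.17. Tpm2, the beta tropomyosin, had 7721, 10604, 13516 and 5860.4 normalised counts in mutants and 8907, 9613, 9144 and 8486 in controls. Fabp3, a fatty acid binding protein, was lower without overlap, as 1 of the 19 membrane and energy genes tested. It had 122, 79.5, 101 and 103 in mutants and 199, 172, 128 and 139 in controls, and did not pass the test (log2 difference -0.64, SE 0.23, limma adjusted p = 0.754).

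Among 22 myogenic regulators 20 were tested, 0 were called in either direction and 3 had an unadjusted p under 0.05 (6.57% of all genes tested). Their mean level was -0.06, 0.23, 0.62 and -0.33 in mutant replicates 1 to 4, against 0.03, -0.13, 0.23 and -0.12 in controls. In mutant replicate 4 their mean level was thus above that of the module, which stood at -1.10. That mean includes genes that are also expressed outside muscle, such as Mef2c, Eya1 and Tbx1. Myog, or myogenin, which drives terminal differentiation, had 2239, 4177, 6064 and 1768 normalised counts in mutants and 2477, 2766, 3060.4 and 2423 in controls (log2 difference 0.25, SE 0.30, limma adjusted p = 0.903). Relative to the module's level in the same library, a measure added after the data were seen, Myog stood at 0.01, 0.50, 0.47 and 0.51 in mutants and at -0.08, -0.09, 0.13 and 0.04 in controls on the log2 scale. It was thus above all controls in mutant replicates 2, 3 and 4 and within them in mutant replicate 1. Myod1, a determination factor, stood at 0.12, 0.61, 0.47 and 0.28 in mutants and at 0.11, -0.34, 0.24 and -0.01 in controls on that measure. In mutant replicate 4 the 7 regulators examined this way stood at 0.15 (Mymk) to 1.28 (Myf5), with 0.19 for both Pax7 and Vgll2. The 7 differed between the groups by -0.02 (Pax7) to 0.42 (Myf5), with 0.37 for both Myog and Myod1, and all 7 had overlapping ranges. The members themselves differed between the groups by -0.55 to 0.54 on that measure, so the values of Myog and Myod1 lay within the range of the members.

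The 3 regulators with the smallest p were Mef2c, Eya1 and Tbx1, which are also expressed outside muscle. Mef2c, a MADS-box factor of muscle, endothelium and neural crest, had 5612, 3947, 5841 and 4551 normalised counts in mutants and 6640.2, 6365, 6773 and 5929 in controls (log2 difference -0.38, SE 0.11, limma adjusted p = 0.754). Eya1, a co-activator in early muscle precursors, had 1202, 939, 1179 and 1171 in mutants and 1544, 1244, 1287 and 1492 in controls (log2 difference -0.31, SE 0.10, limma adjusted p = 0.754). All mutants lay below all controls for these 2 of 20 (1.91% of all genes tested), and neither passed the test. Tbx1, a T-box factor of pharyngeal mesoderm, had 1049, 1397, 1475 and 1444 in mutants and 921, 717, 1225 and 1085 in controls, with ranges that overlapped (log2 difference 0.46, SE 0.16, limma adjusted p = 0.754).

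**Figure D5:**
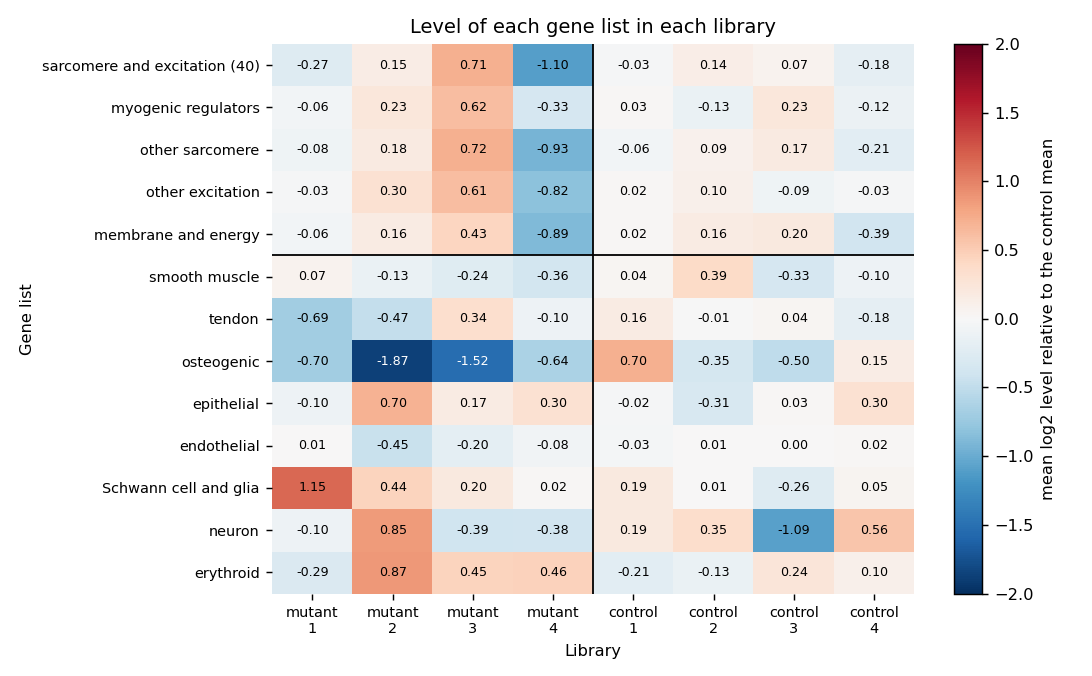
Each cell gives the mean log2 level of a gene list in a library relative to the control mean, with the muscle lists above the line and lists of other cell types below it. The muscle lists are highest in mutant replicate 3 (0.43 to 0.72) and lowest in mutant replicate 4 (-0.33 to -1.10), a pair of extremes that no list of another cell type shows.

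The label of the module was held against defining markers of heart, which shares several members. Nppa and Nppb were at 0 in all 8 libraries, and Nkx2-5, Myl7, Mybpc3, Tbx20 and Smco1 had at most 13.5 normalised counts in a library. Of the 9 cardiac genes only Myh6, at 301, 387, 721 and 183 in mutants and 406, 382, 482 and 329 in controls, and Tnni3 were tested. Myh6 too was highest in mutant replicate 3 and lowest in mutant replicate 4, and its coding sequence is the one that resembles Myh7. Tnni3 was not highest in mutant replicate 3 or lowest in mutant replicate 4. Its log2 difference was 0.13, and its SD in mutants was 0.49 times that in controls.

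Lists of other cell types in the dissection had another order of libraries. The osteogenic list stood at -0.70, -1.87, -1.52 and -0.64 in mutants, against 0.70, -0.35, -0.50 and 0.15 in controls, so it was lowest in mutant replicate 2. The epithelial list was highest in mutant replicate 2 (0.70, with other mutants from -0.10 to 0.30 and controls from -0.31 to 0.30), and the Schwann cell and glia list in mutant replicate 1 (1.15, with other mutants from 0.02 to 0.44 and controls from -0.26 to 0.19). The tendon list was highest in mutant replicate 3, at 0.34, with 3 of 6 genes highest there and 0 lowest in mutant replicate 4. The smooth muscle list stood at 0.07, -0.13, -0.24 and -0.36 in mutants, against 0.04, 0.39, -0.33 and -0.10 in controls. Within it Acta2, the smooth muscle actin, had 4111, 6599, 9579.7 and 3073 normalised counts in mutants and 4691, 5211, 5712 and 4452 in controls, so it too was highest in mutant replicate 3 and lowest in mutant replicate 4. The part of these differences between libraries in the values of the members was not tested.

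The genes outside the lists whose log2 values went most closely with the module's level over the 8 libraries were found among 13431 genes with a mean of at least 50. They were Nexn, Arpp21, Mylk4, Rbm20, Ablim3, Trim72, Alpk3, Itgb1bp2, Clcn5 and Spag17, with Pearson's r between 0.963 and 0.994. The libraries share tissue and depth across genes, and r rests mainly on mutant replicates 3 and 4, so it is a description with no test. Nexn, which encodes nexilin, a Z-disc protein, had 863, 1187, 1472 and 576 normalised counts in mutants and 1018, 1104, 1047 and 954 in controls. Clcn5, a chloride transporter, had 3270.3, 3366, 4719.9 and 2418 in mutants and 3345, 3612, 3677 and 3145 in controls, again highest in mutant replicate 3 and lowest in mutant replicate 4.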

How the data were processed

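Counts of RNA from 4 mutant and 4 control libraries were taken from the deposited table. Per the file headers, the signal values are the authors' normalised counts, in which all genes of a library share 1 scaling step, and the deposited log2 values are variance-stabilised, used in 1 alternative only. The submitters' processing notes name STAR 2.7.2 and, with no version, DESeq2. For the counting tool, strand setting, annotation and build nothing is given in the sources used, so overlapping and antisense genes cannot be separated. Gene spans equalled those of a GRCm38 annotation for 95.2% of IDs compared.

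Whole reads were recovered: 100% of values from 50 to 5000 were whole within 0.06 reads, where values unrelated to whole reads would give 12.0%. Size factors were 0.939 to 1.06. Genes with at least 10 normalised counts in at least 4 libraries were fitted with limma 3.58.1 (R 4.3.3) on log2(normalised count + 1). The variance followed an intensity trend, genotype was the only term, and tests were two-sided, adjusted by Benjamini-Hochberg over 16647 genes at 0.05. The log2 scale with a pseudocount of 1 understates changes of low genes. The fits were tested on simulated counts, drawn for each gene on its own with the same dispersion in both groups. The members moved together by library, with a median SD of 0.82 in mutants and 0.22 in controls. The simulation therefore does not show how well the fits find changes in the members. edgeR 4.0.16 and DESeq2 1.42.0 were run on the recovered reads.

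The members, lists and tests were chosen with earlier results of these data known. Full values are given for the member with the highest mean of each role, the 6 with the smallest p and those under the filter; for each other list up to 3 genes with the smallest p or the highest count; Yap1 and Wwtr1; and the 10 genes most like the module. Myl3, Myog and Myod1 were chosen after their values were seen. Replicates were numbered in label order. The title numbers were not taken as pairs. Correlations of deviations between a mutant and a control library were -0.0077 to 0.100 for shared numbers and -0.085 to 0.076 for unlike numbers. Libraries of the same group with a shared number were not compared, so these values cannot decide what the numbers mark. Coding identity was computed over the longest open reading frames of GENCODE transcripts with Biopython 1.88, and per-kilobase values over the longest coding transcript. Values were computed in Python 3.11.15 with pandas 2.3.3, numpy 2.4.6 and scipy 1.17.1, and figures drawn with matplotlib 3.10.9.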

Additional observations from a re-analysis of the deposited data

Results flagged for a closer look

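Of 124 groups of 4 libraries examined among members, regulators and markers, 1 had a library that stood apart by Dixon's gap criterion at 95%, and chance gives about 1 in 20. Tcap in control replicate 4 had 60.9 normalised counts, against 101, 101 and 105 in the other controls, and its gap took 0.926 of the range of the group (critical value 0.829).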

How the results depend on the processing

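In all 20 alternatives 0 of the tested members, and 0 genes of the other muscle lists, were called. Few genes were called at all, with at most 3 higher and 28 lower, in DESeq2. Of 16647 genes 0 were called without mutant replicate 3, and also 0 without control replicate 2 or control replicate 4. Leaving out mutant replicates 3 and 4 together gave 0 as well. The smallest adjusted p of a member was between 0.634 and 0.975. When 1 library was left out, 0 to 2 members were lower without overlap, against 2.99% to 4.31% of all genes tested. Without mutant replicates 3 and 4 there were 2 (Myom2 and Cacng1), against 7.02% of all genes. The median SD ratio of members was 2.25 to 4.63 when 1 library was left out, its lowest without mutant replicate 4, and 1.54 without mutant replicates 3 and 4. The same ratio over all genes was not computed in these settings. The median log2 difference of members was -0.38 to 0.23 when 1 library was left out. With the replicate block, the first number of each title, it was -0.34, with 0 members called, and the block changed no call of a member. It was -0.02 with library weights and -0.01 with the stabilised values.

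Of the 40 members, none of them called, 17 changed the sign of their log2 difference in edgeR, 17 in DESeq2, 10 with library weights, 5 with the stabilised values, 9 with the replicate block, 9 without mutant replicates 3 and 4, 4 to 26 when 1 library was left out (26 without mutant replicate 4) and 1 each with a pseudocount of 8 and TMM scaling. The values that follow are those of the members given with full values, and the cause was not tested. In edgeR they were 0.077 for Neb, 0.11 for Mylpf, 0.0097 for Actn2, 0.17 for Ckm, 0.095 for Atp2a1 and 0.18 for Cacna1s, and in DESeq2 0.076, 0.11, 0.0077, 0.17, 0.093 and 0.18 for these genes. With library weights they were 0.0077 for Neb, 0.051 for Mylpf, 0.081 for Ckm, 0.024 for Atp2a1 and 0.021 for Cacna1s. With the stabilised values they were 0.0065 for Ckm, 0.00080 for Atp2a1 and 0.022 for Cacna1s. The replicate block gave -0.16 for Actc1, -0.080 for Mybph and -0.20 for Chrna1. Without mutant replicates 3 and 4 they were 0.12 for Neb, 0.029 for Actn2, 0.12 for Atp2a1, 0.25 for Cacna1s and -0.030 for Chrna1.

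When 1 library was left out, the log2 difference ran from -0.16 to 0.44 for Actc1, -0.38 to 0.34 for Neb, -0.42 to 0.16 for Tnnt1, -0.52 to 0.16 for Myh3, -0.36 to 0.27 for Mylpf, -0.11 to 0.42 for Mybph, -0.61 to 0.013 for Myom2, -0.38 to 0.24 for Actn2, -0.52 to 0.26 for Ckm, -0.31 to 0.32 for Atp2a1, -0.37 to 0.47 for Cacna1s and -0.26 to 0.25 for Chrna1, lowest without mutant replicate 3 and highest without mutant replicate 4 in each. Of the ratios, the log2 difference ran from -0.14 to 0.082 for Myh8 to Myh3, -0.016 to 0.074 for Myh7 to Myh3, -0.031 to 0.16 for Tnnt1 to Tnnt3, -0.12 to 0.0023 for Tnnc2 to Tnnc1 and -1.10 to 0.13 for Myl3 to Mylpf. TMM and upper-quartile scaling moved the median of all genes by 0.0035 and -0.00012. The overlap, level and spread were recomputed for pseudocounts, scalings, filters and left-out libraries, since the other alternatives are fits.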
